A study of Homo sapiens with 95 samples.

Results

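The response of NRF2 cells to benzo[a]pyrene (BaP) was measured in 6 wells, 3 under BaP and 3 under the DMSO vehicle, of the 95 wells in the series. These are all the wells whose labels name NRF2 cells with either agent, and 11110 of the 23895 listed genes had a mean count above 1 over them and were tested. All wells held AALE cells, immortalized epithelium of the human bronchus, and the NRF2 population overexpressed NRF2, the protein of the gene NFE2L2. BaP was given at 173 µM, and the exposure time is not given in the sources used here. The measurement was 3′ digital gene expression, which reads the 3′ end of polyadenylated transcripts and counts each captured molecule once by its unique molecular identifier (UMI). The same cells under cigarette smoke condensate (CSC, 24 µg/ml) and under the tobacco nitrosamine NNK (490 µM), 3 wells each, served as other exposures. Comparison populations were HcRed cells, which carry a reporter in place of the overexpressed gene, NRG1 and PIK3CA overexpressing cells, FAT1 knockout cells, and GFP cells, which received Cas9 without a guide, each under BaP and DMSO. FGFR1 overexpressing and CDKN2A knockout cells enter only for their CYP1 levels.

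BaP is a polycyclic aromatic hydrocarbon of smoke and soot that binds the aryl hydrocarbon receptor (AHR). With its partner ARNT, the bound receptor switches on CYP1 genes through DNA elements with the core GCGTG, and CYP1 enzymes convert BaP into reactive diols, epoxides and quinones. NRF2 is the transcription factor of the response to oxidants and electrophiles. KEAP1 marks it for degradation until reactive molecules modify KEAP1, and NRF2 then acts with small MAF proteins on antioxidant response elements beside genes for thioredoxin, glutathione, quinone and iron handling.

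Each of the 6 wells held 1255412 to 1469805 UMI counts, and between 49.8% and 51.2% of the listed genes were seen in a well. Levels are given as CPM, UMI counts brought to a common library size and scaled by the trimmed mean of M values (TMM), whose factors lay between 0.969 and 1.03. All BaP wells lay in plate row F and all DMSO wells in row B, so agent and row cannot be told apart, and the well barcodes held 5 G or C bases under BaP against 1 under DMSO. The cells expressed epithelial keratins, with KRT17 at a mean of 437 CPM, KRT5 at 280.5 and KRT19 at 219 under DMSO. EPCAM was at 33.3 CPM and TP63 at 22.5. Of 18 listed markers of fibroblasts, endothelium, blood, ciliated, secretory and alveolar cells, 13 had no count in any well, and their summed level was 3.31 to 4.65 CPM under DMSO and 3.84 to 6.32 under BaP. In bulk samples such as these, fewer cells of a type and less RNA per cell cannot be told apart.

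BaP changed 229 genes (2.06% of those tested) at a limma-voom adjusted p below 0.05, of which 139 were higher (1.25%) and 90 lower (0.81%). Scaling to library totals alone gave 106 higher and 148 lower, so the balance of directions depends on the scaling. Most changes were small and fell on abundant transcripts. Over all tested genes 51.3% had a log2 fold change above 0 and 48.7% below. The absolute log2 fold change was under 0.5 for 85 of the higher and 46 of the lower genes, and above 1 for 20 and 15. Median CPM under DMSO was 284 for higher genes and 170 for lower genes, against 7.87 for all tested genes. Every BaP well lay above every DMSO well for 131 of the 139 higher genes and below for 83 of the 90 lower genes, where 9.21% and 8.11% of all tested genes were separated in those directions. The study calls the wells of a group biological replicates, while the labels only number them. The p-values rest on the spread between these wells, mostly as pooled over all tested genes. The pooled part had 74.8 degrees of freedom, against 4 from the wells of each gene.

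**Figure D1:**
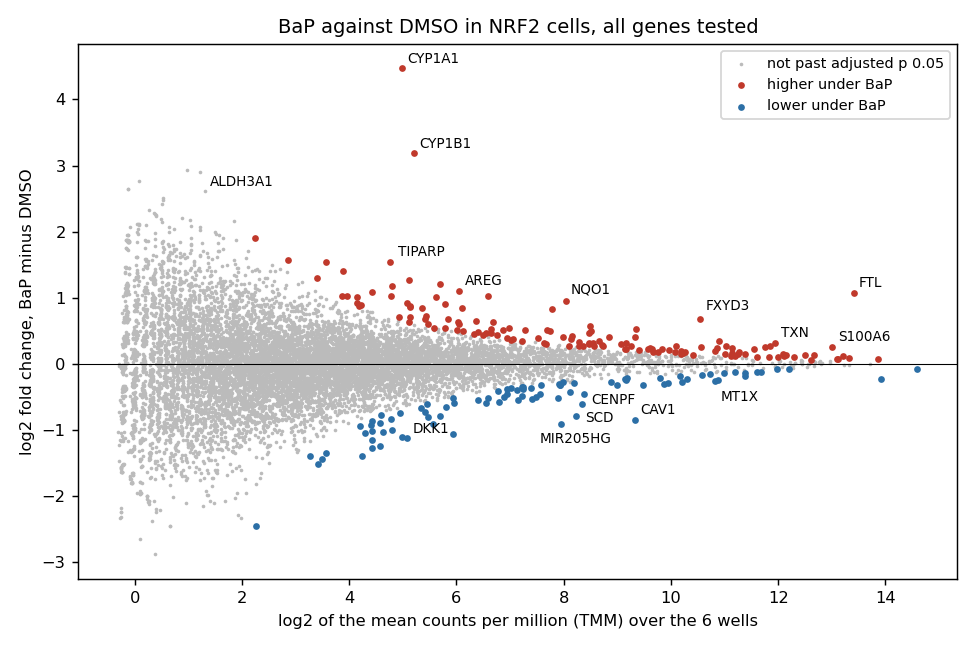
Each point is 1 of 11110 genes, with the log2 mean CPM over the 6 wells on the x axis and the log2 fold change of BaP minus DMSO on the y axis. Red and blue points passed an adjusted p of 0.05. CYP1A1 and CYP1B1 stand highest at 4.47 and 3.19, and FTL lies far to the right at 1.08.

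The largest rises were those of CYP1A1 and CYP1B1, genes that AHR is known to control. Of 11 listed AHR targets, 9 were tested, 4 rose, none fell and 5 did not pass. The median log2 fold change of those tested was 1.30 against 0.01 over all tested genes. CYP1A1 encodes the main BaP-oxidizing enzyme of airway cells and lies on chromosome 15 from 75011883 to 75017877 in hg19. Its level was 2.32, 2.65 and 2.12 CPM in the DMSO wells, or 3 to 4 counts each, and 45.3, 65.0 and 73.4 CPM in the BaP wells, or 59 to 93 counts. The groups were far apart (log2 fold change 4.47 with SE 0.44, adjusted p = 7.17e-13). CYP1B1 encodes a related enzyme that also activates BaP and lies on chromosome 2 from 38294116 to 38337044. It stood at 8.52, 9.28 and 4.23 CPM under DMSO and at 71.5, 74.9 and 54.5 under BaP (log2 fold change 3.19 with SE 0.28, adjusted p = 8.33e-15).

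TIPARP, a mono-ADP-ribosyltransferase that represses AHR, rose from 15.5, 13.9 and 11.99 CPM to 40.0, 43.6 and 38.7 (log2 fold change 1.55 with SE 0.22, adjusted p = 3.22e-07). NQO1, a quinone reductase under the control of both AHR and NRF2, rose from 170.5, 196 and 169 CPM to 336, 360.4 and 342 (log2 fold change 0.95 with SE 0.08, adjusted p = 1.24e-15). All 4 genes kept apart every BaP well from every DMSO well. ALDH3A1, an aldehyde dehydrogenase, held 0, 1 and 1 counts under DMSO and 7, 7 and 3 under BaP, and did not pass (adjusted p = 0.0974). SERPINB2, an inhibitor of plasminogen activators, had a log2 fold change of 1.30 (adjusted p = 0.187), and CYP1A2, the mainly hepatic family member, had 1 to 3 counts in every well. The receptor AHR itself averaged 9.79 CPM under DMSO and 6.55 under BaP, with overlapping wells (adjusted p = 0.524), and ARNT averaged 10.0 in both groups. Of the 6 tested genes of the receptor complex only the chaperone HSP90AB1 passed, at −0.13 (adjusted p = 0.0142), and it did not pass with edgeR or DESeq2.

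The DNA in front of CYP1A1 is shown because it carries the densest cluster of AHR core elements upstream of that gene. In the 1500 bases before the annotated start, GCGTG occurred 10 times on either strand, and the 300-base window with most of them held 5. A window as rich was found in 1.54% of the 10068 tested genes with a position, and the median best window held 1. The window spans chr15:75018830-75019129 (GRCh37, minus strand), from 1252 to 953 bases before the start. Capitals mark GCGTG or its complement CACGC.
CYP1A1 upstream window: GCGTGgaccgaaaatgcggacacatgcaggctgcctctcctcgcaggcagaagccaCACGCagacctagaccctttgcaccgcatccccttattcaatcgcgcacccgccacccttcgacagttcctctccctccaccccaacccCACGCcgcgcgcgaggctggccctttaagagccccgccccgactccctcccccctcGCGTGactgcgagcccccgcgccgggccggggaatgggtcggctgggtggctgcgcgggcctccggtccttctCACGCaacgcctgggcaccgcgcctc
The match is a description of letters, and binding was not measured. Within 250 bases of a RefSeq start, GCGTG was present for 52.7% of the 112 higher genes with a RefSeq promoter, 43.7% of 71 lower genes and 53.9% of 8261 tested genes. Within that span, the response genes with a promoter did not hold the core in a larger share than the genes tested. The span stops short of the CYP1A1 window above, so elements that far from a start were not counted. A promoter was at hand for 112 of the 139 higher and 71 of the 90 lower genes.

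CYP1A1 and CYP1B1 were set beside the other populations on a common scale over all 95 wells. Under BaP, CYP1A1 averaged 62.9 CPM in NRF2 cells (SD 14.8, n = 3). It was higher in FAT1 cells at 94.2 (SD 4.26, n = 3) and lower in GFP cells at 43.0 (SD 8.51, n = 3), HcRed cells, whose wells lay from 20.7 to 41.5, NRG1 cells at 18.8 (SD 4.12, n = 3) and PIK3CA cells at 14.7 (SD 3.87, n = 3). Under DMSO all these populations averaged 1.44 to 2.42 CPM. The order was another for CYP1B1, which averaged 68.7 CPM in NRF2 cells under BaP (SD 10.9, n = 3), below FAT1 cells at 118, HcRed cells with wells from 87.6 to 105.6, NRG1 cells at 93.0 and GFP cells at 78.7, and above PIK3CA cells at 38.4. The log2 response of NRF2 cells exceeded that of HcRed cells by 0.75 for CYP1A1 (adjusted p = 0.907) and 0.40 for CYP1B1 (adjusted p = 0.903), and neither difference passed. Against the mean of GFP, FAT1, NRG1 and PIK3CA cells the differences were 0.16 (adjusted p = 0.988) and −0.24 (adjusted p = 0.94).

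**Figure D2:**
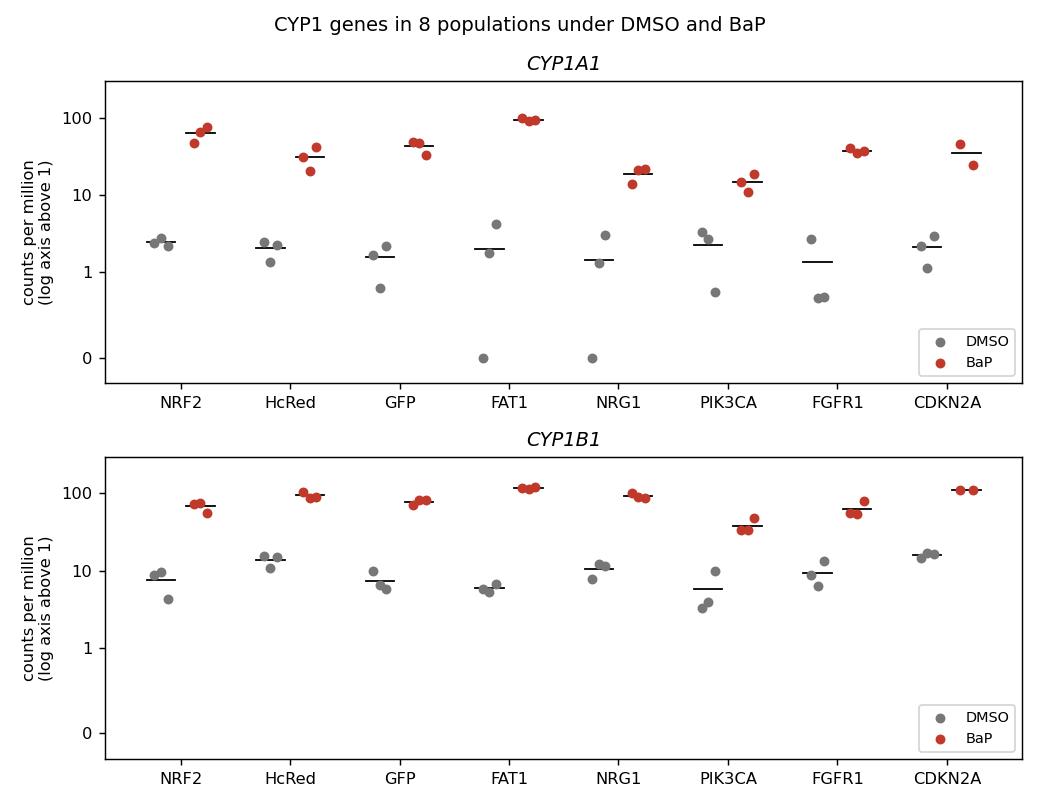
Points are wells, with population on the x axis and CPM on the y axis, which is logarithmic above 1, and black bars are means. For both genes and within each population, no DMSO well reaches the lowest BaP well. CDKN2A cells have 2 BaP wells, and the other populations have 3.

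NFE2L2, the overexpressed gene, did not pass between BaP and DMSO in NRF2 cells. It stood at 151, 135 and 163 CPM under DMSO and 149.8, 139 and 129 under BaP, with overlapping wells and a log2 fold change of −0.10, with SE 0.10 and adjusted p = 0.742. On the common scale, NRF2 cells held 138 to 167 CPM under DMSO against 35.2 to 50.0 in HcRed cells. The counts do not separate the introduced from the native transcript. In the other 4 populations NFE2L2 rose under BaP by 0.38 (adjusted p = 0.00078), and the difference of −0.48 between NRF2 cells and these did not pass (adjusted p = 0.364). KEAP1 averaged 4.33 CPM under DMSO and 4.20 under BaP (adjusted p = 0.998). SQSTM1, a cargo receptor of autophagy that binds KEAP1 and is itself an NRF2 target, rose from 29.4, 22.5 and 19.0 CPM to 43.0, 46.1 and 42.6, a log2 fold change of 0.91 (adjusted p = 0.000841), and was the only 1 of 6 tested regulators to pass.

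Known targets of NRF2 in several branches rose. The smallest p belonged to FTL, the ferritin light chain that stores iron, on chromosome 19 from 49468566 to 49470136. FTL stood at 7088, 6896 and 6973 CPM under DMSO and 14543, 14832 and 14773 under BaP. The groups were narrow and far apart (log2 fold change 1.08 with SE 0.01, adjusted p = 3.2e-75), and FTL went from 0.696% to 0.72% of all counts under DMSO to 1.44% to 1.47% under BaP. FTH1, the heavy chain, rose from 529.9, 579.5 and 493 CPM to 767, 738 and 802 (log2 fold change 0.53 with SE 0.06, adjusted p = 4.12e-11). HMOX2, the constitutive heme oxygenase, rose by 1.03 (adjusted p = 0.000996), while the inducible HMOX1 had too few counts to be tested. These 3 were the only ones of 11 tested heme and iron genes to pass. Ferritin genes have many processed pseudogenes, and how their reads were divided bears on the level.

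In the thioredoxin system 3 of 11 tested genes rose. TXN, the electron carrier, rose from 3480, 3410 and 3648 CPM to 4247, 4505 and 4435 (log2 fold change 0.32 with SE 0.02, adjusted p = 1.1e-18). TXNRD1, the reductase that recharges it, rose from 167, 157 and 152 CPM to 287, 289.6 and 267 (log2 fold change 0.83 with SE 0.09, adjusted p = 3.76e-12). The peroxidase PRDX1 rose by 0.25 (adjusted p = 1.57e-07), and SRXN1, which repairs peroxiredoxins, was at 14.2 CPM and 17.0 with overlapping wells (adjusted p = 0.749). Among 10 glutathione genes only GPX2, a glutathione peroxidase of epithelia, rose, from 15.5, 22.5 and 13.4 CPM to 34.6, 38.7 and 42.6 (log2 fold change 1.17, adjusted p = 0.000101). Both subunits of glutamate-cysteine ligase, GCLC and GCLM, had overlapping wells, with log2 fold changes of 0.61 (adjusted p = 0.294) and 0.25 (adjusted p = 0.792). The cystine carrier SLC7A11 was at −0.45 (adjusted p = 0.439). None of 7 genes that supply NADPH passed, at log2 fold changes of 0.06 to 0.57.

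Of 13 tested genes for quinone and carbonyl enzymes, 4 rose. Besides NQO1, the aldo-keto reductase AKR1C3 rose from 20.9, 17.9 and 21.9 CPM to 49.2, 52.7 and 45.8 (log2 fold change 1.28, adjusted p = 1.12e-06), and its neighbour AKR1C2 rose by 1.08 (adjusted p = 0.00157). ALDH1A3, which oxidizes retinal rather than reducing a carbonyl, rose by 0.86 (adjusted p = 0.00253), a call lost with DESeq2 and without the third DMSO well. AKR1C2 lost its call without the second DMSO well (adjusted p = 0.0531). AKR1C genes are near-identical in sequence, so the split between them is uncertain. PIR, an iron-binding NRF2 target on no list, rose from 60.4, 69.6 and 58.5 CPM to 126, 132 and 129 (log2 fold change 1.03, adjusted p = 5.66e-10). Of 14 tested conjugation and efflux genes 4 rose, namely the glutathione transferases MGST1 at 0.35, GSTM3 at 0.52, MGST3 at 0.24 and GSTP1 at 0.22, with adjusted p-values from 6.18e-13 to 0.00181. In a single fit over all groups no conjugation and efflux gene passed, while 3 quinone and carbonyl genes did.

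RefSeq promoters of 3 of these genes are printed because they hold the antioxidant response element core TGACNNNGC, on either strand, within 250 bases of the start (GRCh38.p14). Capitals mark the core. It begins 99 bases before the TXNRD1 start at chr12:104215529-104215778 (plus strand), 122 bases before the GPX2 start at chr14:64942746-64942995 (minus strand) and 66 bases before the GSTP1 start at chr11:67583562-67583811 (plus strand). In GSTP1 the core also contains TGACTCA, the element bound by AP-1 factors.
TXNRD1: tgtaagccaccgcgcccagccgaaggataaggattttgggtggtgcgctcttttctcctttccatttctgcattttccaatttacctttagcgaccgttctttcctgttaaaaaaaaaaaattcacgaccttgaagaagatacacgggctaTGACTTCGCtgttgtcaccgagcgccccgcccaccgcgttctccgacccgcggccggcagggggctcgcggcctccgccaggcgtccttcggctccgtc
GPX2: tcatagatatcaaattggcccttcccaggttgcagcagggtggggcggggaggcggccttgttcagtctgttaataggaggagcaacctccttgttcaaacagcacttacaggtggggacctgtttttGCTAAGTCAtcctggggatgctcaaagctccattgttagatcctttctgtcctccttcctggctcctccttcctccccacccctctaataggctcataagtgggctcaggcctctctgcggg
GSTP1: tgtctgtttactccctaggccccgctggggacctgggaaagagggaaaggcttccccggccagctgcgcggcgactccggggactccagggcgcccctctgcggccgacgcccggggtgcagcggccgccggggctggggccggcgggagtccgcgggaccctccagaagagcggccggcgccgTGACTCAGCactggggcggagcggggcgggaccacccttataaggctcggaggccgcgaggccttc
The core was present in 15.2% of the 112 higher genes, 21.1% of 71 lower genes and 15.8% of the 8261 tested genes with a RefSeq promoter. As with GCGTG, presence of the letters near the start did not separate the genes that rose.

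**Figure D3:**
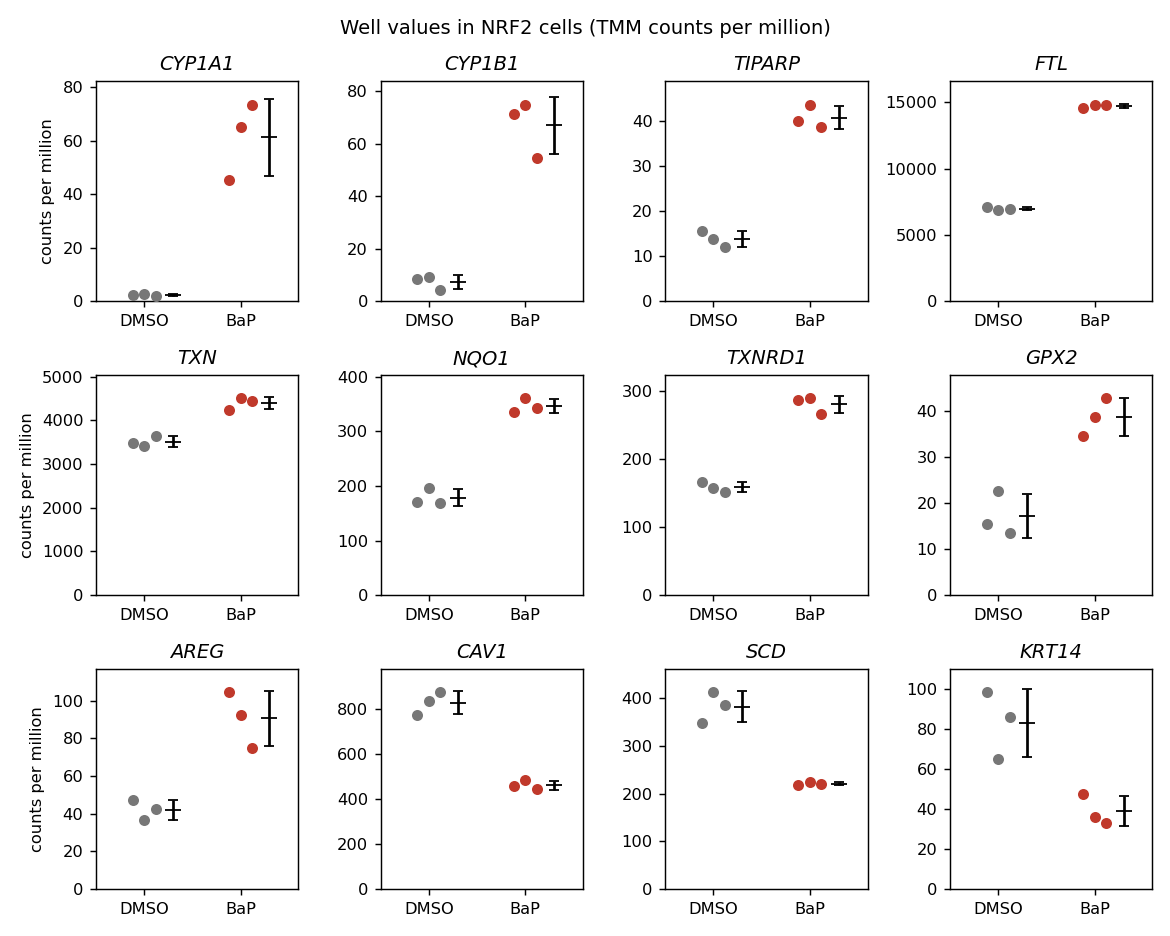
Each panel shows 1 gene in NRF2 cells, with CPM from 0 on the y axis, wells as points, and the mean with its SD beside them (n = 3). The BaP wells lie above the DMSO wells in the first 9 panels and below them for CAV1, SCD and KRT14.

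Among listed EGF receptor family genes (receptors and ligands) and immediate early genes, 3 genes passed. AREG, a growth factor, rose from 47.3, 36.5 and 42.3 CPM to 104.5, 92.1 and 75.0 (log2 fold change 1.11, SE 0.15, adjusted p = 3.74e-08). It was the only 1 of 8 tested receptor and ligand genes to pass. EGR1, an immediate early transcription factor, rose from 10.1, 10.6 and 4.23 CPM to 22.3, 23.9 and 17.4 (log2 fold change 1.41, adjusted p = 0.0015). IER3 rose from 1 to 4 counts to 7 to 12 (adjusted p = 0.041), and lost its call when any of 5 of the 6 wells was left out. The 12 tested immediate early genes had a median log2 fold change of 0.89, with 2 higher and none lower, and FOS and JUN overlapped between groups. The cytokine IL1A rose from 6.97, 3.98 and 7.05 CPM to 13.1, 21.4 and 18.9 (log2 fold change 1.54, adjusted p = 0.00163). Without the second DMSO well IL1A had an adjusted p of 0.0686, and without the third EGR1 had 0.0771.

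No p53 target passed, among 20 tested with a median log2 fold change of 0.03. CDKN1A, the cell cycle inhibitor that p53 controls most strongly, was at 17.1, 7.29 and 7.05 CPM under DMSO and 19.2, 11.5 and 19.7 under BaP, with overlapping wells (adjusted p = 0.192). MDM2 was at −0.02 (adjusted p = 0.979). DNA repair genes (21 tested), ATF4 and endoplasmic reticulum stress genes (21 tested) and feedback genes of ERK signalling (10 tested) had none past the threshold, with medians of 0.05, −0.06 and 0.04. CDKN1A and many of these genes were counted at low depth, where only large changes could be detected.

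Of 37 tested proteasome genes 11 rose, none fell and 26 did not pass, with a median log2 fold change of 0.20. PSMB5, the subunit with chymotrypsin-like activity, rose from 434, 377 and 370.3 CPM to 509, 550.4 and 506 (log2 fold change 0.41, adjusted p = 4.28e-06), and PSMD13 rose by 0.60 (adjusted p = 0.00295). UBB, which encodes ubiquitin, rose by 0.27 (adjusted p = 1.32e-14). Oxidative phosphorylation genes rose in 8 of 79 tested with none lower, by 0.11 to 0.47, among them COX7A2 at 0.18 and SDHC at 0.47, and SDHC lost its call with DESeq2 and without the second DMSO well. In a single fit over all groups, 1 proteasome gene and no oxidative phosphorylation gene passed. Ribosomal protein genes were divided, with 13 of 84 higher and 3 lower, and library totals turned this to 10 higher and 17 lower.

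In central metabolism the glycolytic enzymes ENO1 (0.25, adjusted p = 1.92e-08), TPI1 (0.40, adjusted p = 1.21e-07) and GAPDH (0.14, adjusted p = 0.00126) rose, while LDHA, which makes lactate, fell by 0.23 (adjusted p = 0.000122). In lipid synthesis SCD, which makes monounsaturated fatty acids, fell from 349, 413 and 386 CPM to 219, 225 and 219.6 (log2 fold change −0.79 with SE 0.08, adjusted p = 4.17e-13). The isoprenoid enzymes IDI1 and FDPS rose by 0.30 and 0.31, so 2 of 22 tested sterol and lipid genes were higher and 1 lower. FDPS lost its call with DESeq2 and without the first DMSO, second DMSO or second BaP well, and GAPDH with DESeq2 and without the second well of either group. FXYD3, a regulator of the sodium pump, rose from 1240, 1092 and 1131 CPM to 1861, 1849 and 1794 (log2 fold change 0.67, adjusted p = 4.99e-24). B2M, the light chain of MHC class I, rose by 0.26 (adjusted p = 3.51e-13), alone among 23 tested interferon and MHC genes.

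**Figure D4:**
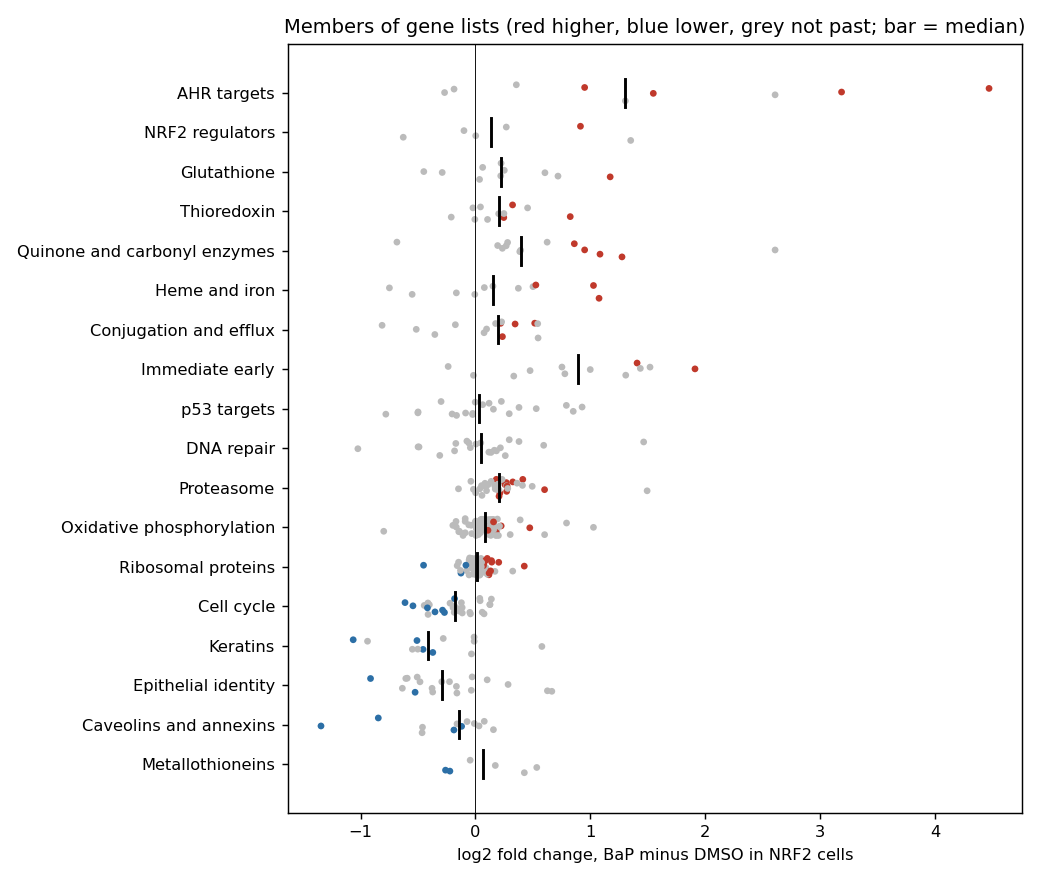
The x axis is the log2 fold change of BaP minus DMSO in NRF2 cells, each point is a tested member of 1 of 18 gene lists on the y axis, and black bars are list medians. Red members passed as higher, blue as lower, grey did not pass. AHR targets reach furthest to the right, proteasome members cluster to the right of 0, and called keratin and cell cycle members are all blue.

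The smallest p among lower genes belonged to CAV1, the coat protein of caveolae, on chromosome 7 from 116165048 to 116201233. It fell from 770.1, 835 and 872 CPM to 456, 482 and 442 (log2 fold change −0.85 with SE 0.06, adjusted p = 2.47e-20). PTRF, the caveolar partner also called cavin 1, fell from 20.1, 20.6 and 11.3 CPM to 6.92, 5.76 and 6.32 (log2 fold change −1.34, adjusted p = 0.0103), a call lost when the first or second DMSO well or the second BaP well was left out. CAV2 was at −0.46 (adjusted p = 0.157). The annexins ANXA1 and ANXA2 fell by 0.19 (adjusted p = 0.00659) and 0.12 (adjusted p = 0.00483), so 4 of 12 tested genes of the list were lower and none higher. ANXA2 lost its call with edgeR, with DESeq2 and without any 1 of 3 wells (DMSO 1, DMSO 3, BaP 1), and ANXA1 without DMSO well 3 or BaP well 1, and the list had 2 lower with DESeq2 and 1 when all groups were fitted together.

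Several genes of mitosis fell. Of 29 tested cell cycle genes 7 were lower, none higher and 22 did not pass, with a median of −0.18. A single fit over all groups left 2 lower, and MKI67, CCNB1, AURKA and TUBA1B did not pass in it. CENPF, a kinetochore protein of G2 and mitosis, fell from 409, 389 and 385 CPM to 267, 243 and 262 (log2 fold change −0.61, adjusted p = 1.04e-09). The proliferation marker MKI67 fell from 98.4, 107 and 96.6 CPM to 78.4, 70.8 and 59.2 (log2 fold change −0.54, adjusted p = 0.00387). TOP2A, which untangles chromosomes, fell by 0.42 (adjusted p = 0.000203), the mitotic cyclin CCNB1 by 0.29 (adjusted p = 1.91e-05) and the kinase AURKA by 0.27 (adjusted p = 0.00441). MKI67 lost its call without DMSO well 2 or BaP well 3, and AURKA without DMSO well 1 or BaP well 3. The remaining 2 were TPX2, a spindle assembly factor named after its values were seen, at −0.35, and TUBA1B, a tubulin with near-identical copies, at −0.18.

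Of 12 tested keratins 4 fell, none rose and 8 did not pass, with a median of −0.41. The basal keratins KRT14 and KRT5 fell from 98.4, 65.0 and 86.0 CPM to 47.6, 36.2 and 33.2 (log2 fold change −1.06, adjusted p = 1.01e-06) and from 259.6, 331.5 and 250.4 CPM to 207, 209.8 and 174.5 (log2 fold change −0.51, adjusted p = 3.83e-05). KRT19 fell by 0.46 (adjusted p = 0.000419) and KRT6A by 0.37 (adjusted p = 0.0197), though KRT6A wells overlapped and its paralogs are near-identical. KRT6A lost its call with DESeq2 and without any 1 of 4 wells (DMSO 1 and 2, BaP 2 and 3), and was at −0.25 without the last of these. KRT17, the most abundant epithelial keratin named here, was at −0.01 (adjusted p = 0.971). The desmosomal genes DSG2, at −0.91 (adjusted p = 7.79e-05), and DSP, at −0.52 (adjusted p = 0.000446), were the 2 of 19 tested epithelial genes that passed, and DSP lost its call with DESeq2 and without the first DMSO well. MIR205HG, host of the epithelial microRNA miR-205, fell from 350.2, 304 and 313 CPM to 164, 183 and 169 (log2 fold change −0.90, adjusted p = 5.85e-14). DKK1, a secreted inhibitor of WNT signalling, fell from 48.8, 45.1 and 45.8 CPM to 18.4, 22.2 and 22.9 (log2 fold change −1.13, adjusted p = 2.91e-05).

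To ask how far these changes are shared, BaP was compared with DMSO in the 24 wells of GFP, FAT1, NRG1 and PIK3CA cells, which share no well with the NRF2 cells. There 718 of 11270 tested genes (6.37%) passed, 398 higher (3.53%) and 320 lower (2.84%). Of the 139 genes higher in NRF2 cells, 138 had the same sign (99.3%), and 111 were called higher there, which is 79.9% of the NRF2 calls and 27.9% of the 398. Of the 90 lower genes, 85 had the same sign (94.4%), and 61 were called lower, 67.8% of the NRF2 calls and 19.1% of the 320. Over all tested genes the signs were the same in 61.7%, a share not matched for expression level. Median CPM in NRF2 cells under DMSO was 284 for the higher and 170 for the lower genes, against 7.87 for all tested genes. The only gene called in opposite directions was MT1X. In these 24 wells too, BaP wells lay in other plate rows (E and F) than DMSO wells (A and B). Their barcodes held 3 to 5 G or C bases under BaP against 1 under DMSO. A shared change therefore does not tell agent from row or barcode.

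The difference between the response of NRF2 cells and the mean response of these 4 populations was then tested itself, and 2 of 11306 genes passed (0.0177%), both lower in NRF2 cells, with 683 at an unadjusted p below 0.05. MT1X encodes a metallothionein, a small protein that binds zinc and copper, on chromosome 16 from 56716382 to 56718108. In NRF2 cells it fell from 1921, 1982 and 2039 CPM to 1567, 1701 and 1706 (log2 fold change −0.26, SE 0.04, adjusted p = 1.31e-07). The log2 fold change under BaP was 0.21 in GFP, 0.14 in FAT1, 0.29 in NRG1, 0.26 in PIK3CA and 0.28 in HcRed cells, so every other population tested moved upwards, although the rise in FAT1 cells did not pass (adjusted p = 0.149). The lower level in NRF2 cells was not particular to BaP. On the scale of all 95 wells, their MT1X stood at 1481 to 1652 CPM under CSC and 1798 to 1949 under NNK. All of these wells lay below the DMSO wells of NRF2 cells, at 1977 to 2088. HcRed wells stood at 1762 to 2088 CPM under CSC, 1880 to 1979 under NNK and 1710 to 1941 under DMSO. The difference from the 4 populations was −0.49 (adjusted p = 2.18e-11) and passed in 37 of 38 alternatives, the exception being a single fit over all groups (adjusted p = 0.269). MT2A, a metallothionein of higher level, fell by 0.22 with overlapping wells (adjusted p = 8.9e-07). That call was lost with DESeq2, in the single fit and with robust trended priors, and the value ranged from −0.31 to −0.13. Its difference from the 4 populations did not pass (−0.30, adjusted p = 0.0884). MT1 genes are close copies of one another, so reads may be divided between them.

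S100A6, a calcium-binding protein on chromosome 1 from 153507075 to 153508720, rose less in NRF2 cells. It went from 7599, 7464 and 7516 CPM to 8925, 9131 and 8959 (log2 fold change 0.26, SE 0.01, adjusted p = 8.61e-27), against 0.59 in GFP, 0.52 in FAT1, 0.34 in NRG1 and 0.32 in PIK3CA cells. The difference was −0.19 (adjusted p = 2.34e-05). As for MT1X, this p-value rests on the spread between wells and not on the spread between populations. The responses of PIK3CA and NRG1 cells, at 0.32 and 0.34, lay near that of NRF2 cells. The difference did not pass with edgeR, DESeq2, a single fit over all groups or no filter on low counts. On the common scale NRF2 cells started from 7719 CPM under DMSO, above GFP cells at 4496, FAT1 cells at 5111 and PIK3CA cells at 5365 and nearer to NRG1 cells at 7002 and HcRed cells at 7091. The levels of FTL differed likewise at the start, with 7164 CPM (SD 120, n = 3) in NRF2 cells under DMSO and 15106 (SD 129, n = 3) under BaP. HcRed cells went from 4262 (SD 188, n = 3) to wells of 8380 to 8895. The log2 responses of FTL differed by 0.03 between NRF2 and HcRed cells (adjusted p = 0.88).

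**Figure D5:**
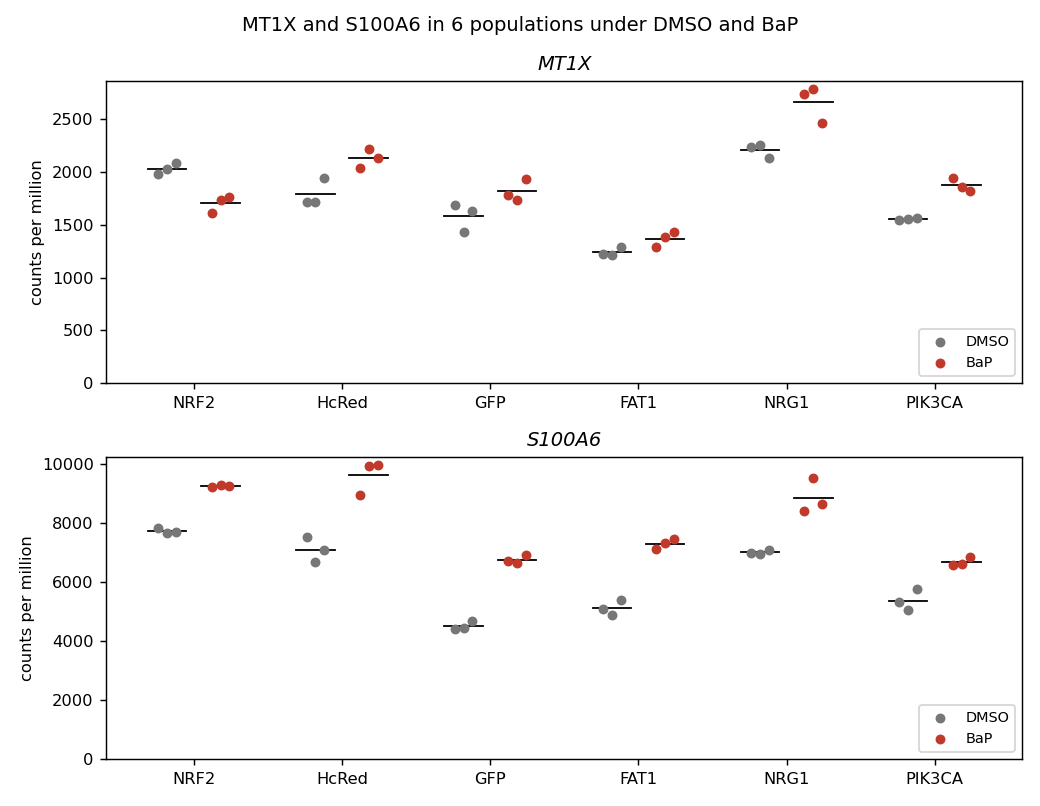
Points are wells in 6 populations on the x axis, with CPM on the scale of all 95 wells on the y axis, grey for DMSO and red for BaP, and black bars are means. MT1X is lower under BaP in NRF2 cells, from 1977 to 2088 CPM down to 1614 to 1760, and its mean is higher under BaP in the other 5. S100A6 is higher under BaP throughout.

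Against HcRed cells, the control of the overexpression populations, the BaP response differed in 48 of 11382 genes (0.422%), 2 higher (0.0176%) and 46 lower (0.404%). At an unadjusted p below 0.05 there were 737. Of the 46 lower, 35 were ribosomal protein genes and 3 were metallothioneins. MT1X again differed most by p (−0.54, adjusted p = 1.22e-10), followed by S100A6 (−0.22, adjusted p = 2.06e-08), RPL6 (−0.39, adjusted p = 8.05e-08), RPS23 (−0.23, adjusted p = 2.9e-07) and the elongation factor EEF1A1 (−0.19, adjusted p = 2.94e-07). Against the 4 populations RPL6, RPS23 and EEF1A1 did not pass, with adjusted p-values of 0.893, 0.793 and 0.958. FTH1 (0.38, adjusted p = 0.0434) and the phosphatase DUSP3 (1.84, adjusted p = 0.047) were higher, but FTH1 passed in only 9 of 20 alternatives and DUSP3 in 4. Leaving out 1 HcRed BaP replicate moved FTH1 to between 0.24 and 0.60, and without the summed replicate RPL6 was at −0.20 (adjusted p = 0.0156). HcRed cells had 1 BaP well with a single-digit number, and wells 31 and 32 were summed on the assumption, which the labels do not state, that they were 1 replicate. Kept apart, these wells left 13 genes, and library totals left 11, edgeR 12 and DESeq2 1. HcRed BaP wells lay in plate row E with 3 G or C bases in their barcodes, against row F and 5 in NRF2 cells. DMSO barcodes held 1 in both populations, so population, row and barcode cannot be told apart here.

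BaP was also compared directly with CSC in NRF2 cells, at doses in different units. Here 168 of 11156 genes differed (1.51%), 141 higher under BaP (1.26%) and 27 lower (0.242%), and library totals gave 52 higher and 50 lower. The CSC wells lay in plate row D with 1 G or C base in their barcodes, against row F and 5 under BaP. Agent, row and barcode thus cannot be told apart in this comparison. Neither CYP1A1 (0.36, adjusted p = 0.468) nor CYP1B1 (−0.48, adjusted p = 0.0899) separated the agents, and FTL was at 0.00 (adjusted p = 0.969). FTH1 was lower under BaP (−0.55, adjusted p = 6.2e-11), as were TIMP1, an inhibitor of metalloproteases (−0.46, adjusted p = 1.87e-10), MT2A (−0.39, adjusted p = 1.1e-05), SCD (−0.62, adjusted p = 4.28e-07) and SLC7A11 (−1.09, adjusted p = 0.00142). TXNIP, which binds and inhibits thioredoxin, was higher under BaP by 1.10 (adjusted p = 1.34e-06), and B2M by 0.26 (adjusted p = 4.34e-10). Ribosomal protein genes were among the leading higher genes, such as RPL41 at 0.20 (adjusted p = 6.62e-17) and RPLP1 at 0.25 (adjusted p = 3.57e-11).

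Against NNK, whose barcodes held 5 G or C bases as did those of BaP, 98 of 11045 genes differed (0.887%), 26 higher under BaP (0.235%) and 72 lower (0.652%). The AHR and NRF2 targets led the higher genes. CYP1A1 was higher by 2.48 (adjusted p = 2.42e-10), CYP1B1 by 2.02 (adjusted p = 1.58e-09), TIPARP by 1.21 (adjusted p = 0.000108), FTL by 0.81 (adjusted p = 2.51e-45), NQO1 by 0.73 (adjusted p = 2.45e-09), TXNRD1 by 0.70 (adjusted p = 4.16e-08) and SQSTM1 by 1.28 (adjusted p = 2.48e-05). CAV1 was lower (−0.65, adjusted p = 1.63e-11), as was S100A2, a calcium-binding protein of epithelial cells (−0.48, adjusted p = 4.69e-22). RPL18 was lower by 2.37 (adjusted p = 5.73e-31), and on the scale of all 95 wells it stood at 1344 to 1846 CPM in the NNK wells of NRF2 cells against 293 to 329 under BaP, 309 to 319 under CSC and 301 to 339 under DMSO. In HcRed cells the NNK wells stood at 293 to 363 CPM. Single BaP wells elsewhere were also high, with GFP well 2 at 777 and HcRed well 31 at 810. The cause was not tested. EGR1 and AREG did not pass between BaP and NNK, at −0.24 (adjusted p = 0.837) and 0.18 (adjusted p = 0.799).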

How the data were processed

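AALE cells were profiled by 3′ digital gene expression, and the authors deposited raw UMI counts per gene and well. Per the study's methods, reads were aligned with BWA 0.7.10 to the hg19 RefSeq transcriptome and reads with the same UMI and well barcode were counted once per gene. The deposited counts were scaled by TMM in edgeR 4.0.16 (R 4.3.3), genes with a mean count above 1 in the compared wells were kept, and groups were compared by limma-voom (limma 3.58.1, two-sided, Benjamini-Hochberg, threshold 0.05). Only the compared groups entered each fit. HcRed BaP wells 31 and 32 were summed as 1 replicate, an assumption the labels do not state. The members, gene lists and comparisons were chosen with earlier results of these data known. Named genes were CYP1A1, CYP1B1 and NFE2L2, the 15 genes in each direction that led by adjusted p and whose wells did not overlap, up to 6 passing members of each of 33 lists with examples that did not pass, and up to 5 per direction in the other contrasts. Scripts were tested on simulated data. Alternatives were other scalings, filters, edgeR and DESeq2 1.42.0, a single fit over all groups, a replicate block and leaving out each well. Depth per well was 1255412 to 1469805 counts. Sequences came from GRCh37 and RefSeq GRCh38.p14, with 78 of 96 named genes in the promoter table. An exact permutation test of 3 against 3 wells cannot go below 0.10 and was not used. All columns were mapped to wells.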

Additional observations from a re-analysis of the deposited data

Results flagged for a closer look

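The response to BaP differed between NRF2 and HcRed cells, by a test of the difference itself, in 48 genes. MT1X differed by −0.54 on the log2 scale, S100A6 by −0.22, RPL6 by −0.39, RPS23 by −0.23 and EEF1A1 by −0.19, while FTH1 was at 0.38 and DUSP3 at 1.84. MT1X passed with edgeR and DESeq2, but no gene passed in a single fit over all groups. S100A6 and EEF1A1 did not pass with edgeR or DESeq2, and RPL6 and RPS23 did not with DESeq2. EEF1A1 also did not pass with library totals. FTH1 passed in 9 of 20 alternatives and DUSP3 in 4, and FTH1 lay between 0.24 and 0.60 when 1 HcRed BaP replicate was left out. On the scale of all 95 wells DUSP3 averaged 7.38 CPM under DMSO and 15.4 under BaP in NRF2 cells, and 16.2 and 8.76 in HcRed cells. FTH1 averaged 548 and 789 CPM in NRF2 cells and 456 under DMSO in HcRed cells, whose BaP wells lay from 435 to 549.

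The response differed between NRF2 cells and the mean of GFP, FAT1, NRG1 and PIK3CA cells in 2 genes, MT1X at −0.49 and S100A6 at −0.19.

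In populations outside these comparisons, CYP1A1 under BaP averaged 37.6 CPM in FGFR1 cells and 35.2 in CDKN2A cells, and CYP1B1 averaged 63.0 and 111. Under DMSO the same populations averaged 1.35 and 2.08 CPM for CYP1A1, and 9.41 and 15.99 for CYP1B1.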

How the results depend on the processing

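Of 104 alternative counts of genes, 77 lay within 1.5 times the count reported and 27 moved further. Of 1570 alternative values over 88 named genes, 1354 kept their side of the threshold, 216 lost it and none changed sign. The 229 genes of BaP against DMSO became 123 with DESeq2, 67 in a single fit over all groups and 42 when tested against a log2 change of 0.2, a test added after seeing the data. Leaving out 1 well gave 148 (without the second DMSO well) to 276. The 48 genes against HcRed became 11 with library totals, 28 with a mean count above 5, 12 with edgeR, 1 with DESeq2, 0 in the single limma fit (482 at an unadjusted p below 0.05) and 13 with HcRed wells 31 and 32 apart. Leaving out 1 replicate gave 23 (without the third HcRed BaP replicate) to 51, with 29 without the first NRF2 BaP well. The 2 genes against the 4 populations became 1 without a filter, 6 with a mean count above 5, 1 with DESeq2 and 0 in the single limma fit (555 at an unadjusted p below 0.05). Leaving out 1 well gave 2 to 4, with 4 without the first NRF2 DMSO well or the first FAT1 BaP well. The 168 genes against CSC became 102 with library totals and 11 in the single fit, and leaving out 1 well gave 96 (second BaP well) to 159, with 99 without the third BaP well and 102 without the third CSC well. The 98 genes against NNK became 59 with DESeq2 and 25 in the single fit, and 61 (without the first NNK well) to 102 when 1 well was left out. The cause of these changes was not tested.

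Wells of the same number correlated at 0.0913, 0.0325 and 0.0415 in their deviations from group means over 3920 genes, so the numbers were not taken to pair wells. With a replicate block the counts were 292 for BaP against DMSO, 56 against HcRed, 4 against the 4 populations, 215 against CSC and 123 against NNK. Agent and plate row cannot be told apart, and genes with few counts could show only large changes.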

Other observations

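Several gene groups were not described above. Matrix and protease genes had none past the threshold among 24 tested, with a median log2 fold change of −0.31. Heat shock genes were lower in 2 of 18 tested, a count that was 0 with edgeR and DESeq2. S100 and squamous genes were higher in 1 and lower in 2 of 17 tested, and cytoskeleton genes were higher in 1 and lower in 1 of 20. Antiprotease genes were higher in 1 and lower in 1 of 12.

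EDC3, an mRNA decapping factor that lies on chromosome 15 from 74922899 to 74988633, near CYP1A1, was noticed after its values were seen. It stood at 11.6, 13.3 and 9.87 CPM under DMSO and 20.7, 26.3 and 24.5 under BaP, with no overlap (log2 fold change 1.02, adjusted p = 0.0106). RPL18 stood at 810 CPM in HcRed BaP well 31 and at 301 in well 32, on the scale of all 95 wells.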
